A study of Homo sapiens with 8 samples.

Results

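TSC22D3, PER1 and KLF9 are genes known to be induced by glucocorticoids in many tissues, and the sites where steroid receptors were called around them are described here. The members are the peaks of 8 deposited lists that touch 1 of these 3 genes or the 50 kb on either side of it, with the gene bodies in the hg19 build at chrX:106956452-107019020 for TSC22D3, chr17:8043788-8055753 for PER1 and chr9:72999503-73029573 for KLF9. They number 59 of the 93493 peaks used from all lists. All 3 genes are read on the minus strand, so positions are given as the distance from the gene's 5′ end in the direction of transcription.

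The receptor for glucocorticoids (GR) and that for progesterone (PR) are closely related hormone-activated transcription factors. After binding their hormone they gather in the nucleus and bind DNA as pairs at near-identical elements made of hexamers facing each other, often in enhancers far from a promoter. TSC22D3 encodes the glucocorticoid-induced leucine zipper, GILZ, a mediator of anti-inflammatory glucocorticoid effects. PER1 encodes a repressor of the circadian clock, and KLF9 a zinc-finger transcription factor of the Krüppel-like family.

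Binding was mapped by ChIP-seq in T47D, an established human breast cancer line grown in hormone-stripped serum and then without serum. The A1-2 derivative carries both receptors, as the series describes it, while the MTVL WT derivative served as the control. GR was precipitated from A1-2 cells that were untreated, or given 10 nM dexamethasone (Dex), a synthetic glucocorticoid, or 10 nM R5020, a synthetic progestin, for 60 min. The PR antibody was used on A1-2 and on MTVL cells, untreated or given 10 nM R5020 for 60 min, and input DNA came from A1-2 cells. Each group had 1 library, so differences between groups lack replicates and are given without p-values. How deeply each library was sequenced is unknown, and deeper libraries give longer lists. In the lists as used, GR had 394 untreated, 18415 Dex and 1185 R5020 peaks. PR had 630 untreated and 28262 R5020 peaks in A1-2 cells and 219 and 43070 in MTVL cells, and the input list had 1318. Intervals are exact 95% intervals over peaks and cover counting error only. They treat the peaks as independent, though those of a gene are neighbours in 1 library.

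The promoters of the 3 genes are shown as a reference for the receptor sites described next. The nearest peaks began 93 bases past the 5′ end at PER1 and 365 bases past it at KLF9. A weak TSC22D3 peak fell near an internal start. Whether any peak lay on a promoter was not settled, since the peaks are in the hg19 build. The letters are RefSeq's, from the GRCh38.p14 build, minus strand, and stop at the last base before the transcript's start. Capitals mark an E-box (CACGTG), the element of the clock activators, in PER1, and the core of a cAMP response element (TGACG) in TSC22D3. The windows are chr17:8152405-8152654 for PER1, chr9:70414658-70414907 for KLF9 and chrX:107717063-107717312 for an internal start, 1 of 4, of TSC22D3, which gives shorter transcripts.
PER1: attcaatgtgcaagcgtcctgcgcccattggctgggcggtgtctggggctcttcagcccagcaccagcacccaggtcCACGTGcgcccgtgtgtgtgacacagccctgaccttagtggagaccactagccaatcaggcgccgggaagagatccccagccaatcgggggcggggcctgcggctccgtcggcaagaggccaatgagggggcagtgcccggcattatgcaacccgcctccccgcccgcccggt
KLF9: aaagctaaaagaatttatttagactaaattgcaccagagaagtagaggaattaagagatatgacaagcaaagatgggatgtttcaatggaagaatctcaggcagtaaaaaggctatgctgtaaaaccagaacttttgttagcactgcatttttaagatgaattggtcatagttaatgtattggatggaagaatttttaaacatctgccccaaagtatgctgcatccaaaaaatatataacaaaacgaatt
TSC22D3: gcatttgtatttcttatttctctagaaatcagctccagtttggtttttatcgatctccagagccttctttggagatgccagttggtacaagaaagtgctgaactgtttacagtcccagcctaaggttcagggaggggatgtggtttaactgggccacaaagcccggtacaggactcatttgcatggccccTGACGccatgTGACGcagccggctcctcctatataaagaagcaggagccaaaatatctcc

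Receptor elements were searched on both strands from 250 bases before each start to 50 bases after it. The full palindrome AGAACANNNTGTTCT was in 0 of the 6 windows of the 3 genes and in 0.00285% of 35116 RefSeq windows of that length. Its looser form GNACANNNTGTNC, which every full palindrome also matches, was in 0 of the 6 and in 0.39% of all. The hexamer AGAACA, also part of the full palindrome, was in 0 of the 6 and in 14.8% of all. CACGTG was in the PER1 window, 173 bases before the start, and in 7.26% of all. TGACG was in 3 of the 6, all of TSC22D3, and in 24.6% of all, with matches at 60 and 50 bases before the start shown. A window without a match says only that these letters are not there, and the peaks themselves could not be searched, since no hg19 sequence was used here.

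Peaks of the Dex GR list and of both R5020 PR lists were dense around all 3 genes, as the map of called peaks shows. The Dex GR list had 5 peaks at TSC22D3, 2 at PER1 and 4 at KLF9. The R5020 PR list of A1-2 cells had 7, 4 and 5, and that of MTVL cells 9, 6 and 7. The GR list without hormone, the GR list after R5020 and the input list had 0 at each gene. Untreated PR peaks numbered 7 at PER1 and 0 at the other genes in A1-2 cells, and 2 at PER1, 1 at KLF9 and 0 at TSC22D3 in MTVL cells.

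**Figure D1:**
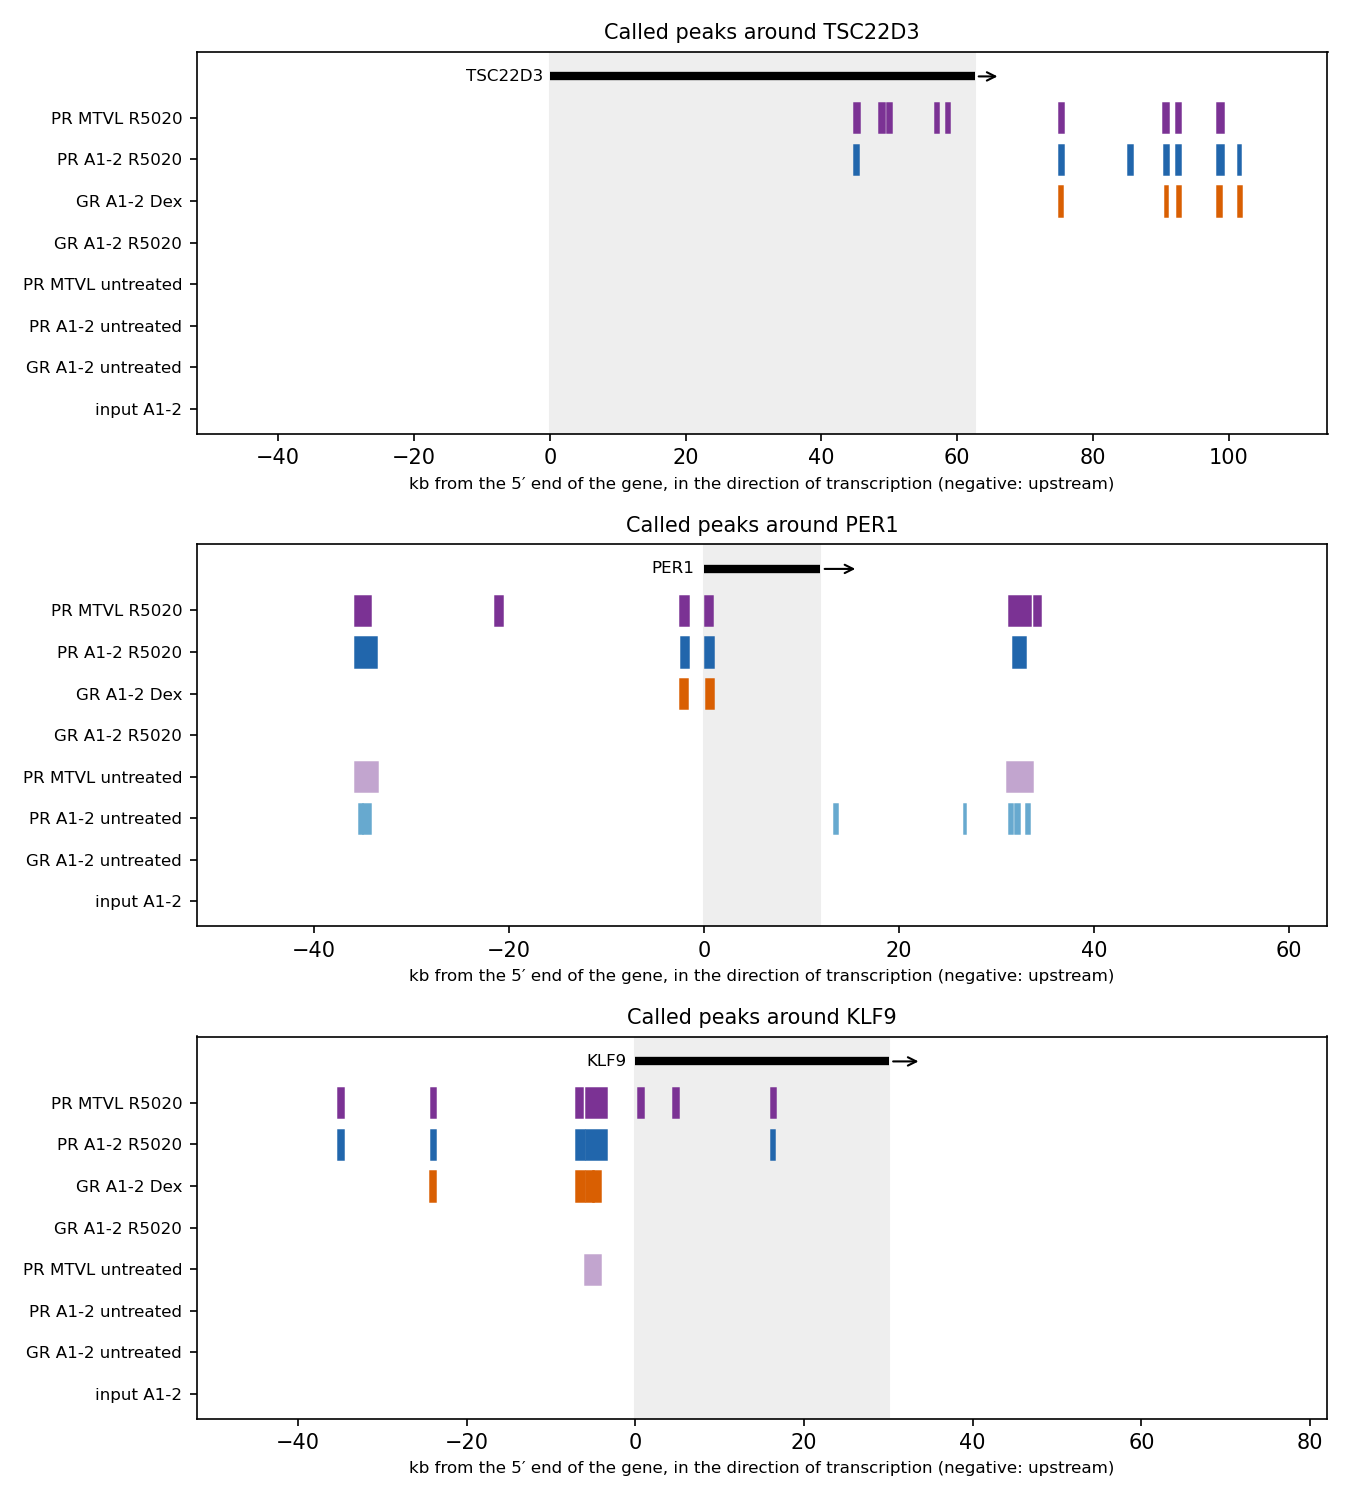
Called peaks around TSC22D3, PER1 and KLF9 in each of the 8 lists, as bars from the start to the end of each peak (very short ones drawn with a thin outline), against the distance in kb from the gene's 5′ end in the direction of transcription; the black bar and gray band are the gene. The 5 Dex GR peaks at TSC22D3 lie beyond its 3′ end, those at KLF9 lie upstream, and those at PER1 stand at its 5′ end.

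Read as a density, the Dex GR list held 30.8 peaks per Mb in the TSC22D3 window, 17.9 in the PER1 window and 30.8 in the KLF9 window, against 6.07 over the genome. PR of A1-2 cells after R5020 held 43.1, 35.7 and 38.4 per Mb against 9.32, and PR of MTVL cells 55.4, 53.6 and 53.8 against 14.2. The windows were thus 2.94 to 5.07 times as dense as the genome in these 3 lists. Not all of these peaks were absent without hormone. At PER1 2 of the 4 PR peaks of A1-2 cells lay at an untreated PR peak of that line, against 1.33% of the whole list. In MTVL cells 2 of 6 did at PER1 and 1 of 7 at KLF9, against 0.56%. Cut into consecutive windows of the same length, 4.74% of the genome held at least 5 Dex GR peaks as at TSC22D3, 15.7% at least 2 as at PER1 and 5.4% at least 4 as at KLF9. For PR of A1-2 cells the shares were 4.27%, 8.26% and 6.49%, and for PR of MTVL cells 4.26%, 5.86% and 5.28%. The genes were chosen as known hormone targets and the consecutive windows include stretches without genes, so no test was made.

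**Figure D2:**
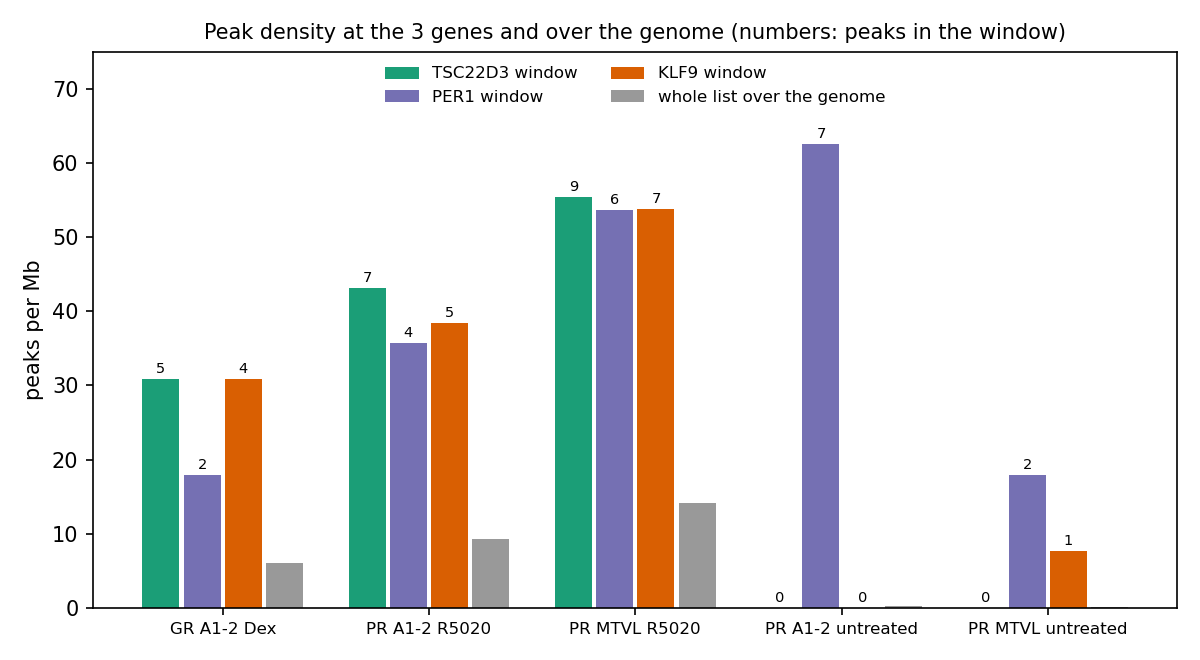
Peaks per Mb in the window of each gene (colored bars) and over the genome (gray bars) in 5 lists, with the number of peaks in the window above each bar. In the 3 hormone lists shown all windows stand above the genome, by 2.94 to 5.07 times, and in the untreated PR lists the PER1 window stands highest, with 7 and 2 peaks.

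Overlapping peaks of all lists merged into 26 sites, 11 at TSC22D3, 8 at PER1 and 7 at KLF9. GR after Dex and PR after R5020 in both lines shared 9 sites, of which 4 were at TSC22D3, 2 at PER1 and 3 at KLF9. PR of both lines without GR had 5 sites, PR of MTVL cells alone 8, PR of A1-2 cells alone 1, and GR with PR of A1-2 cells alone 1. A further 2 sites, both at PER1, were called only in untreated A1-2 cells, with the PR antibody. No site was called for GR alone. Over the whole lists 73.8% of Dex GR peaks lay at a PR peak of A1-2 cells, and 53.8% of MTVL PR peaks were found in A1-2 cells.

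At TSC22D3 the receptors were called within the gene and beyond its 3′ end, and at no place in the 50 kb upstream of its 5′ end. All 5 Dex GR peaks lay beyond the 3′ end, from 12.4 to 38.8 kb past it. From near to far from the gene their scores were 192, 198, 266, 209 and 142, close to the list's median of 193. The score is the peak caller's own value, in which a higher score stands for a smaller p, and it is used only to order peaks within a list. With a score of at least 200 required in every list, 2 of these 5 peaks were left.

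Each of the 5 GR sites of TSC22D3 also carried a PR peak of A1-2 cells, and 4 of them a PR peak of MTVL cells. The site 90.7 kb from the 5′ end was the highest of the gene in the PR list of A1-2 cells, with a score of 875 (15.8% of the list scored higher), on chrX from 106927980 to 106928562. In MTVL cells its PR score was 868 (23.2% higher), with 1 peak of the gene above it. In the Dex GR list the same site scored 198 (48.6% higher), below 2 others of the gene. The site 98.7 kb from the 5′ end, chrX:106919856-106920751 in A1-2 cells, had PR scores of 566 in A1-2 and 857 in MTVL cells, and a GR score of 209. It was the widest PR peak of the gene in both lines, at 896 and 979 bp.

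The site 92.5 kb from the 5′ end had the highest GR score of the gene, 266, with PR scores of 311 in A1-2 and 249 in MTVL cells. The site 75.3 kb away had a GR score of 192 and PR scores of 189 in A1-2 and 602 in MTVL cells. The farthest, 101.6 kb away, was called for GR (142) and for PR in A1-2 cells (193) and not in MTVL cells. Between these a PR peak of A1-2 cells alone, with a score of 146, lay 85.5 kb from the 5′ end. The nearest Dex GR peaks outside the window were 398 kb beyond the 3′ end and 532 kb upstream. For PR they were 423 and 532 kb away in A1-2 cells and 276 and 250 kb away in MTVL cells. How common such gaps are was not tested.

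Inside TSC22D3 only PR was called. The site 45.2 kb into the gene had the gene's highest score in MTVL cells, 2317 (7.82% of the list higher), at chrX:106973464-106974171. In A1-2 cells the PR peak there, chrX:106973574-106974191, scored 199 (58.5% higher), and 3 of the 7 at this gene scored higher. To set the lines on 1 scale, the 23379 PR peaks of A1-2 cells that overlap an MTVL PR peak were ranked with their partners. Within these pairs 66.0% scored higher in A1-2 cells and 14.8% higher in MTVL cells than this site, a gap of 51.1 points. Of all pairs 4.91% differed by at least that much in either direction. The site was singled out after its values were seen.

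MTVL cells had 4 further PR peaks inside TSC22D3 that A1-2 cells lacked, with scores of 151, 109, 349 and 475 at 58.6, 57.0, 49.9 and 48.8 kb into the gene. The first reached from 58311 to 58816 bases from the 5′ end, at chrX:106960204-106960709. In the GRCh38 promoter windows the internal start printed above lies 58926 bases from the first start and 58725 from the second. The peak spans the latter distance and stops just short of the former, and which start the hg19 gene body begins at was not settled. With a score of 151, of which 78.7% of the MTVL list were higher, it was among the weaker peaks. A GR peak was called at none of these 4 sites, as at 18796 of all 19898 MTVL PR peaks that A1-2 cells lacked.

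At PER1 the sites of both receptors stood at the 5′ end. One lay from 208 to 908 bases into the gene for GR after Dex, chr17:8054845-8055545, with a score of 840 (7.87% of the list higher). PR peaks there scored 1768 in A1-2 cells (6.67% higher) and 1685 in MTVL cells (11.8% higher) and began 107 and 93 bases past the 5′ end. The other lay about 2.0 kb upstream, chr17:8057449-8058163 for GR, with a GR score of 1051 (5.38% higher) and PR scores of 1432 in A1-2 (8.92% higher) and 1110 in MTVL cells (18.7% higher). These were the highest PER1 scores in each hormone list. The PR lists ranked the site inside the gene above the upstream one, and the GR list ranked them the other way round.

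The next Dex GR peak beyond the PER1 window was 83.0 kb past the 3′ end of the gene, and upstream the nearest was 405 kb away. Within the window MTVL cells had 2 weak PR peaks that A1-2 cells lacked, at 21.0 kb upstream (258) and 34.1 kb from the 5′ end, past the 3′ end of the gene (118). All other hormone sites at PER1 were called in both lines.

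PER1 differed from the other genes in its untreated PR peaks. In A1-2 cells 7 were called without hormone, with scores of 804 and 275 upstream, at 34.6 and 35.3 kb, and of 392, 104, 172, 391 and 346 on the 3′ side, at 13.5, 26.7, 31.5, 32.1 and 33.2 kb from the 5′ end. They were 137 to 686 bp wide, and 6 of the 7 were wider than the list's median of 247.5 bp. Over the genome 0.0554% of windows of this length held at least 7. In untreated MTVL cells 2 peaks of 2260 and 2584 bp (list median 1242 bp), with scores of 151 and 240, covered 5 of the 7, against 9.68% of all untreated A1-2 PR peaks, and 0.0665% of windows held at least 2.

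After R5020 PR was called at the same places 34.7 kb upstream and 32.3 kb from the 5′ end. The A1-2 scores were 668 and 451 and the MTVL scores 907 and 760. Of the 7 untreated A1-2 peaks 3 overlapped a PR peak after R5020 in that line, against 76.5% of all. GR was called at 0 of the 7 untreated PR peaks after Dex, against 54.4% of all untreated PR peaks of A1-2 cells. The peaks 13.5 and 26.7 kb away were called in no list after hormone. The GRCh38 gene table lists 11 tRNA genes in this neighbourhood, 7 on the 3′ side of PER1 among HES7 and ALOXE3, and 4 upstream between TMEM107 and BORCS6, and the untreated A1-2 peaks divided 5 and 2 over the same sides. The peaks were not placed on those genes, since the builds differ.

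At KLF9 the receptors were called upstream of the gene, with weak PR peaks inside it and none past its 3′ end. The strongest PR site of all 3 genes lay 4.7 kb upstream. Its PR peaks reached from 73033050 to 73035458 on chromosome 9 in A1-2 cells and from 73033021 to 73035464 in MTVL cells. Both scored 3100, a value that 601 peaks of the A1-2 list and 1858 of the MTVL list share, so their order among these is unknown. Peaks of 3100 or more made up 2.33% of the A1-2 list and 4.69% of the MTVL list. They were 2409 and 2444 bp wide, against list medians of 645 and 671 bp. Untreated MTVL cells had a peak there, chr9:73033739-73035519, with a score of 108, near the lowest score called, and 0.845% of windows of this length held an untreated MTVL peak. Untreated A1-2 cells had none.

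The Dex GR list divided this KLF9 site into 2 peaks, chr9:73033814-73034573 with a score of 337 and chr9:73034623-73035467 with a score of 469. Of the list 26.3% and 17.2% scored higher, so the site was not among the strongest of that list. The neighbouring site 6.6 kb upstream had a GR score of 283 and PR scores of 521 in A1-2 and 1015 in MTVL cells. The site 24.0 kb upstream had a GR score of 300 and PR scores of 1180 in A1-2 (11.3% higher) and 2286 in MTVL cells (7.98% higher). Its PR peaks were 459 and 473 bp wide, below the list medians.

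A site 35.0 kb upstream of KLF9 was called for PR alone, with scores of 480 in A1-2 and 997 in MTVL cells. Inside the gene, a site 16.3 kb from the 5′ end scored 118 and 170. Peaks of MTVL cells alone lay 4.7 kb (134) and 0.6 kb (122) into the gene. All peaks inside KLF9 were below their list's median, which was 244 for PR of A1-2 cells and 313 for PR of MTVL cells.

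Just outside the 50 kb limit, 66.2 kb upstream of KLF9, GR after Dex scored 1896 at chr9:73095408-73096105, and 1.61% of the list scored higher. That is above every GR peak of the 3 windows. PR had the tied score of 3100 there in both lines, and untreated MTVL cells had a PR peak of 185. The nearest hormone peaks outside the limit began 59.5 kb upstream, where GR scored 408 and PR of A1-2 cells 522, and the outermost inside it was the PR site whose A1-2 peak began 34.6 kb upstream.

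The plot of scores sets the genes side by side. In the Dex GR list both PER1 peaks (840 and 1051) were above every peak of KLF9 (283 to 469) and TSC22D3 (142 to 266). In both PR lists the highest score was at KLF9, not at PER1. Over the 3 genes 9 of 11 GR peaks, 11 of 16 PR peaks of A1-2 cells and 14 of 22 PR peaks of MTVL cells were above their list's median. The median scores were 283, 500 and 681, against 193, 244 and 313 for the whole lists. At TSC22D3 alone 3 of 5, 3 of 7 and 6 of 9 peaks were above the list's median, with median scores of 198, 199 and 475.

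**Figure D3:**
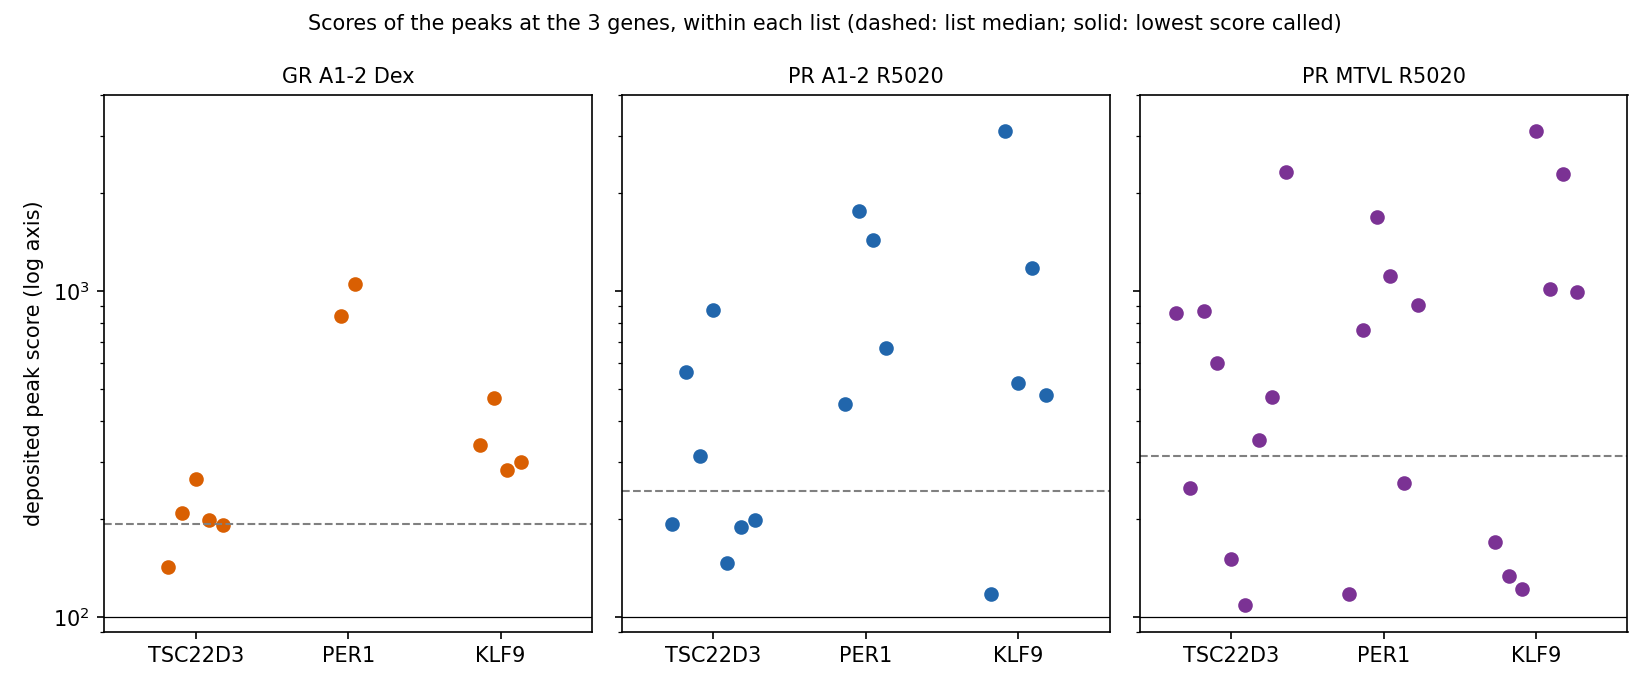
Deposited score of every peak at TSC22D3, PER1 and KLF9 in the 3 hormone lists (log axis), each point a peak, in order of genome position within a gene; the dashed line is the median of the whole list and the solid line the lowest score called. In the GR list the PER1 peaks (840 and 1051) are highest, and in both PR lists a KLF9 peak (3100) is.

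How GR and PR shared sites in A1-2 cells was compared by overlap. All 11 Dex GR peaks of the 3 genes overlapped a PR peak of A1-2 cells after R5020 (100%, 71.5 to 100), against 73.8% of all Dex GR peaks, and 10 of 11 overlapped one of MTVL cells (90.9%, 58.7 to 99.8), against 69.3%. Of the 16 PR peaks of A1-2 cells 10 overlapped a Dex GR peak (62.5%, 35.4 to 84.8), against 48.2% of all. The intervals of these shares cover the whole lists' values. The 6 PR peaks without GR scored lower, with a median of 325 against 721 for the 10 with GR, and over the whole list the medians were 172 and 452. The midpoints of overlapping GR and PR peaks were 25 to 791 bp apart with a median of 55.5 bp, against 39.5 bp over all 13590 pairs. The 791 bp belongs to the KLF9 site that the GR list divided.

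The standing of each site for GR and for PR was read among those 13590 pairs, ranked in each list. At the 5 TSC22D3 sites the standings differed by 1.38 to 28.2 points. At the PER1 sites 10.5% and 7.23% of pairs scored higher for GR, and 13.9% and 18.2% for PR. At the KLF9 site 4.7 kb upstream, 33.9% and 22.7% scored higher for its 2 GR peaks, and for PR it was among the 5.03% of pairs at 3100 or more, in which it cannot be ranked. Among the 11 pairs the gap was largest there, at 33.5 points with ties given the best rank of their group. Gaps of at least that size were found in 22.7% of all pairs.

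**Figure D4:**
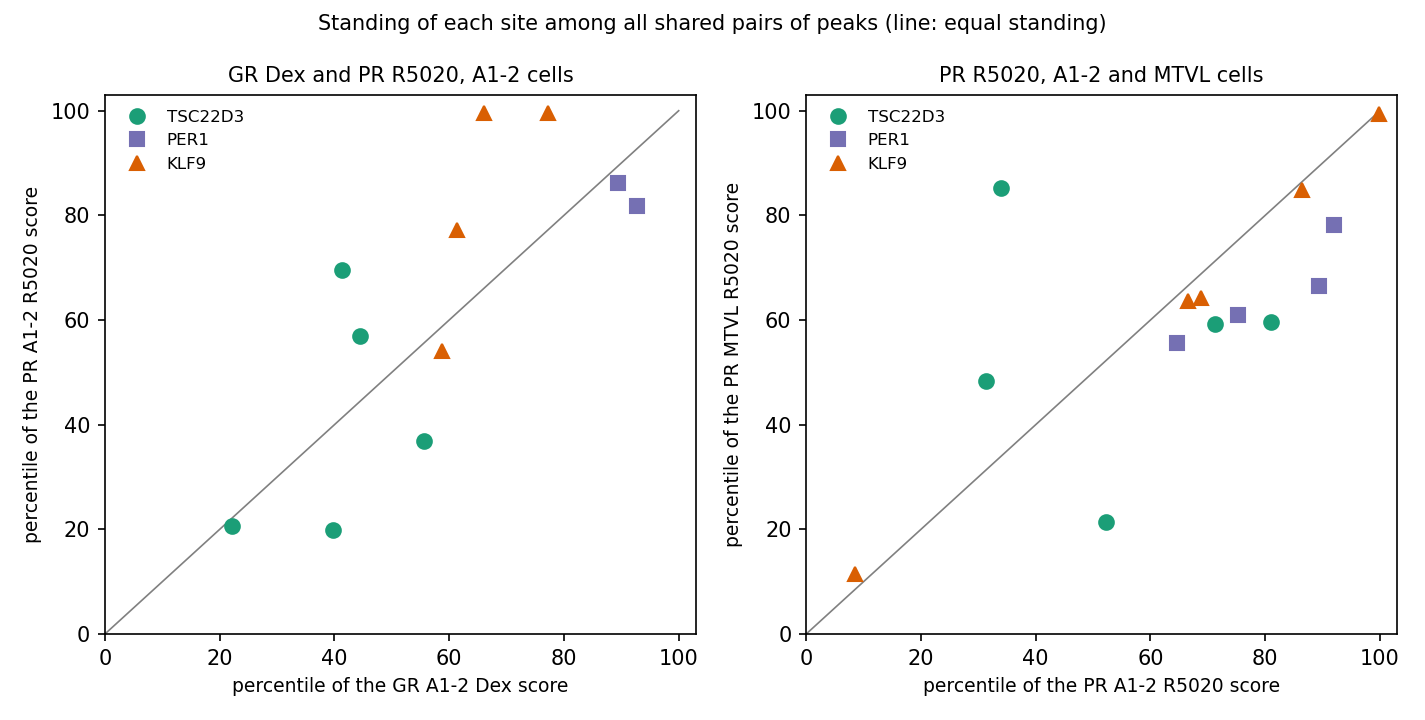
Percentile of each shared site among all pairs of overlapping peaks, where a higher percentile is a higher score; left, Dex GR against PR after R5020 in A1-2 cells (13590 pairs); right, PR after R5020 in A1-2 against MTVL cells (23379 pairs). The line marks equal standing; tied scores take the top percentile of their tie, so the KLF9 site at 3100 is at the top of both panels, and the TSC22D3 site 45.2 kb into the gene is the point farthest above the line on the right.

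Exposed to R5020, A1-2 cells gave no GR peak at these genes. Of the 11 Dex GR peaks 0 overlapped a GR peak after R5020 (0 to 28.5%), against 3.19% of all Dex GR peaks. Of the 16 PR peaks of A1-2 cells 0 did (0 to 20.6%), against 2.08% of all. Windows with at least 1 such peak made up 3.27% of the genome at the length of the TSC22D3 window, 2.35% at that of PER1 and 2.66% at that of KLF9. With so short a list, a count of 0 in these windows is what most windows show. Dex and R5020 were given at the same dose and time, and GR peaks numbered 11 after Dex and 0 after R5020 at the 3 genes.

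PR peaks after R5020 were set side by side for the 2 lines, the comparison that bears on the series' question of GR acting on PR binding. With 1 library per line, the presence of GR cannot be told apart from line, library or depth. The GR sites used here are those after Dex, since GR after R5020 had 0 peaks at these genes. Of the 22 MTVL peaks 14 were found in A1-2 cells (63.6%, 40.7 to 82.8), against 53.8% of all. Of the 16 A1-2 peaks 14 were found in MTVL cells (87.5%, 61.7 to 98.4), against 82.7%. GR Dex peaks lay at 9 of the 22 MTVL peaks (40.9%, 20.7 to 63.6), against 29.5%. At these sites 9 of 9 MTVL peaks were found in A1-2 cells (100%, 66.4 to 100), against 91.3% of all. Elsewhere 5 of 13 were (38.5%, 13.9 to 68.4), against 38.1%. The GR list and the PR list searched both came from A1-2 cells, so this split cannot tell GR from other traits of that line. The intervals of all these shares cover the values of the whole lists.

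The 8 MTVL peaks that A1-2 cells lacked were the weaker ones, with scores from 109 to 475 and a median of 142. The 14 found in both scored from 170 to 3100 with a median of 952. Over the whole list the medians were 186 and 623. By gene, 4 of the 8 lay in TSC22D3, 2 at PER1 and 2 in KLF9, and none was at a GR peak. Over the whole list 18796 of the 19898 MTVL PR peaks that A1-2 cells lacked were likewise away from a Dex GR peak. A weak peak can be called or missed as depth changes, and whether the unknown depths of these libraries differ was not tested.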

How the data were processed

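ChIP-seq peaks of GR, PR and input were analysed in 8 libraries of T47D A1-2 and MTVL WT cells, 1 per group, grouped by their titles. Per the submitters' processing notes, the tools were Bowtie 1.1.1, MACS 1.4.2 and bedtools, on hg19. Settings, control library and read depths: not given in the sources used here. A deposited list holds peaks of 1 library with a score per peak, which is the authors' value, taken as MACS's transform of the peak's p from its lowest value of 100 in the lists. Scores order peaks within a list and compare no levels between libraries.

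Peaks outside chromosomes 1 to 22 and X, or overlapping an input peak, were left out, which removed 0 peaks at the 3 genes. Overlap means at least 1 bp, and overlapping peaks of all lists but input were chained into sites. Genome densities use a span of 3033 Mb, up to the last peak of each chromosome. The gene and promoter tables are GRCh38, so no peak was placed on another gene and the planned counts at other response genes were not made. All sites at the genes are described, as the rule for named sites asked. Genes and rules were chosen with earlier results of these data known. The overlap and merging steps were tested on simulated data. Python 3.11.15, numpy 2.4.6, scipy 1.17.1 and matplotlib 3.10.9 were used.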

Additional observations from a re-analysis of the deposited data

Results flagged for a closer look

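At PER1 the number of called PR peaks moved in opposite directions in the lines after R5020. In A1-2 cells it fell by 3, with a change of -3 from 7 to 4, and in MTVL cells it rose by 4, from 2 to 6. Each line had 1 library per condition, and the difference was not tested. Counted as sites, untreated A1-2 cells had 4, and A1-2 cells after R5020 also had 4, of which 2 were the same, since 5 of the untreated peaks lay within 2 of the sites.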

How the results depend on the processing

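Over 7 alternatives, 16 summary results over the 3 genes were recomputed in 77 cases. In 67 the value stayed within 1.5 times the count, or within the share's interval, and in 10 it moved further. The 67 include the counts of 0 of the untreated GR, R5020 GR and input lists, which stayed 0 throughout. A smaller window or a stricter score could not have changed those. A window of 25 kb gave 7 Dex GR peaks, 10 R5020 PR peaks of A1-2 cells and 3 sites of PR in both lines without GR. A window of 100 kb gave 25 PR peaks of A1-2 cells after R5020, 11 without hormone and 5 untreated PR peaks of MTVL cells. A score of at least 200 gave 17 sites in all, 5 of PR in MTVL cells alone, 1 of untreated cells alone and 1 untreated PR peak of MTVL cells. Keeping peaks at input peaks changed nothing at the 3 genes. The shares stayed within their intervals under every alternative run: 90.9% to 100% for GR peaks at PR peaks, 56.0% to 69.2% for PR peaks of A1-2 cells at GR peaks and 52.9% to 69.0% for MTVL peaks found in A1-2 cells. The alternative without peaks at untreated peaks was added after seeing the data. It left 2 of 4 PR peaks of A1-2 cells at PER1 and 2 of 4 GR peaks at KLF9. A window of 25 kb left 1 of 5 GR peaks at TSC22D3. No paired analysis was possible because each group has 1 library. Unknown depth limits every count.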
